A study of Mus musculus with 35 samples.

Results

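The 10 circadian clock genes Arntl (also called Bmal1), Clock, Per1, Per2, Per3, Cry1, Cry2, Nr1d1, Nr1d2 and Dbp were followed in bone marrow-derived macrophages under 6 treatments in both genotypes. They were chosen by name as parts of the clock. Each is listed once among the 47069 gene identifiers of the RNA sequencing data, and 10 of 10 passed the filter on low values, a mean of at least 1 FPKM over all 35 libraries. FPKM values count fragments relative to the length of a gene and to the depth of its library, so that levels of different genes can be compared per length.

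The clock is a loop of transcription that runs in nearly every cell. The proteins of Arntl and Clock bind together to E-box sequences and switch on the Per, Cry and Nr1d genes, after which the Per and Cry proteins inhibit that pair and the Nr1d proteins (REV-ERBs) repress Arntl. Dbp is an output of the same pair and itself activates genes through D-box sequences. In macrophages this loop is known to gate inflammatory responses, and glucocorticoids are known to reset it in many tissues, with Per1 as a direct target of the glucocorticoid receptor.

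The cells came from C57BL/6 mice, either wild-type (WT) or carrying AMPKa1-/-, the loss of a catalytic subunit of the energy sensor AMPK, and were grown out of bone marrow in medium conditioned by L929 cells. They received vehicle, dexamethasone (Dex, a synthetic glucocorticoid) at 100 nM, lipopolysaccharide (LPS, a bacterial cell wall component) at 100 ng/ml, LPS+Dex, damage-associated molecular patterns (DAMPs, molecules released by injured cells) at 1 µg/ml, or DAMPs+Dex, each for 24 h. There were 3 replicates in each of the 12 groups except WT LPS, with replicates 2 and 3, which made 17 WT libraries and 18 labelled AMPKa1-/-; replicate 1 of WT LPS was not analysed here. Cultures came from individual mice of both sexes, the DAMPs are not specified further, and the labels do not say whether the AMPKa1 deletion is restricted to a cell type. No label gives a time of day, and every library was taken at a single time, so that a shift in phase and a change in amplitude of a rhythm cannot be told apart. Library totals, read from the smallest steps in the FPKM values, were 15837203 to 31955298 fragments (median 19973568), and 1 fragment on 1 kb of exons was worth 0.0313 to 0.0631 FPKM.

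The labels were first checked against genes that should follow them. Tsc22d3, a classical glucocorticoid target, was at 54.4, 51.7 and 54.6 FPKM in WT vehicle and at 724, 667 and 736 FPKM in WT Dex, without overlap. Il1b, an inflammatory cytokine, had means of 4.96 ± 1.04 FPKM in WT vehicle (SD, n = 3) and 15290 ± 1924 FPKM in WT LPS (SD, n = 2), so both genes followed the labels. Prkaa1, the gene of AMPKa1, was not lower in the libraries labelled AMPKa1-/-: vehicle libraries read 14.8, 16.5 and 15.4 FPKM, against 15.9, 11.8 and 15.3 FPKM in WT. Its mRNA therefore does not check the genotype labels, and the position of the deletion in the gene is not given in the sources used here. All 8 macrophage markers listed were above a mean of 1 FPKM and were led by Lyz2 (mean 24100 FPKM). The neutrophil list summed to 13.9 FPKM in WT vehicle, 144 FPKM in WT LPS and 788 FPKM in WT LPS+Dex (432 FPKM in AMPKa1-/- LPS+Dex), led by S100a8; 5 of its 10 genes were above a mean of 1 FPKM, while the defining genes Ly6g, Elane and Mpo stayed at means of 0.013, 0.049 and 0.034 FPKM over all libraries. The 4 cycling genes summed to 63.0 FPKM in WT vehicle and 34.9 FPKM in WT Dex, and to 88.9 and 28.0 FPKM in AMPKa1-/-. The T cell list summed to 16.5 FPKM in WT vehicle, 10.6 with Dex, 1.01 with LPS, 2.57 with LPS+Dex and 29 with DAMPs, and to 9.84, 6.66, 0.696, 0.898 and 19.1 FPKM in AMPKa1-/-. It was led by Cd4 (mean 9.62 FPKM), the only 1 of its 5 genes above a mean of 1 FPKM, while Cd3e, Cd3d, Cd3g and Cd8a had means of 0.013, 0.027, 0.017 and 0.005 FPKM. The osteoclast list, led by Acp5, summed to 23.9 FPKM in WT vehicle, 74.1 with Dex, 198 with LPS and 686 with LPS+Dex, and to 14.5, 81.6, 145 and 449 FPKM in AMPKa1-/-; Acp5 and Ctsk were above a mean of 1 FPKM, while Ocstamp and Calcr had means of 0.006 and 0.402 FPKM. The stroma list, led by Col1a2, was at 10.1 FPKM in WT vehicle, 17.6 in WT Dex, 2.19 in AMPKa1-/- vehicle and 4.0 in AMPKa1-/- Dex. The dendritic, B cell, mast and basophil, and erythroid lists summed to at most 2.66 FPKM in any group mean. The part of these lists in the results was not tested, and in bulk samples fewer cells of a type and less RNA per cell cannot be told apart.

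Regulatory letters near the start sites are shown for the 4 clock genes in which a listed clock motif was found, because the feedback loops act through these sequences. The promoters were the 250 bases before to 50 bases after each RefSeq start (GRCm38.p6), and both strands were read. Of all 32851 promoters, 7.15% held the E-box CACGTG, 2.32% the D-box TTANGTAA, 2.61% the ROR element TAGGTCA to which REV-ERBs bind, 1.79% the cAMP element TGACGTCA and 6.85% the short glucocorticoid element ACANNNTGT. Capitals mark the motif in each stretch, which is written 5′ to 3′ on the strand of the gene. The Per1 stretch runs from base -215 to base -116 of a start site (chr11:69098734-69098833, plus strand), and its E-box begins at base -166.
Per1: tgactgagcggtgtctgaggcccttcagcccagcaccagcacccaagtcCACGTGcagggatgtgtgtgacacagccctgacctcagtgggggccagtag
The Per3 stretch runs from base -230 to base -131 (chr4:151044796-151044895, minus strand) and holds 2 D-boxes, at -205 and -158.
Per3: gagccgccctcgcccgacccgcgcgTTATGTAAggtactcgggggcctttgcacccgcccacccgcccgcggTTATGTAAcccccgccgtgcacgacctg
The Cry1 stretch runs from base -110 to base -11 (chr10:85185065-85185164, minus strand), with an E-box at -60.
Cry1: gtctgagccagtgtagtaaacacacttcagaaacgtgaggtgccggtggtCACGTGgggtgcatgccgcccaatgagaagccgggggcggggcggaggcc
The Arntl stretch lies 21 to 47 bases after a start site (chr7:113207531-113207557, plus strand), with a ROR element at base 31.
Arntl: aggcagaaagTAGGTCAgggacggagg
None of the 5 motifs was found in the windows of Clock, Cry2, Nr1d1, Nr1d2 or Dbp, which says only that these letters are not within them. A promoter of Per2 was not used here.

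With vehicle, the clock genes differed widely in level per length. In WT vehicle the mean was highest for Dbp (22.7 ± 5.36 FPKM, SD, n = 3) and Nr1d2 (17.9 ± 3.03 FPKM), followed by Per1 (8.51 ± 0.677 FPKM), Clock, Arntl, Cry2 and Per3, and lowest for Nr1d1, Per2 and Cry1 (1.45 FPKM). The range of the 12 group means, on the log2(FPKM + 1) scale, was 4.60 for Dbp, 4.0 for Nr1d2 and 2.59 for Per1, against 0.89 for Cry2. The plot of levels by library shows each gene over the 6 treatments.

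**Figure D1:**
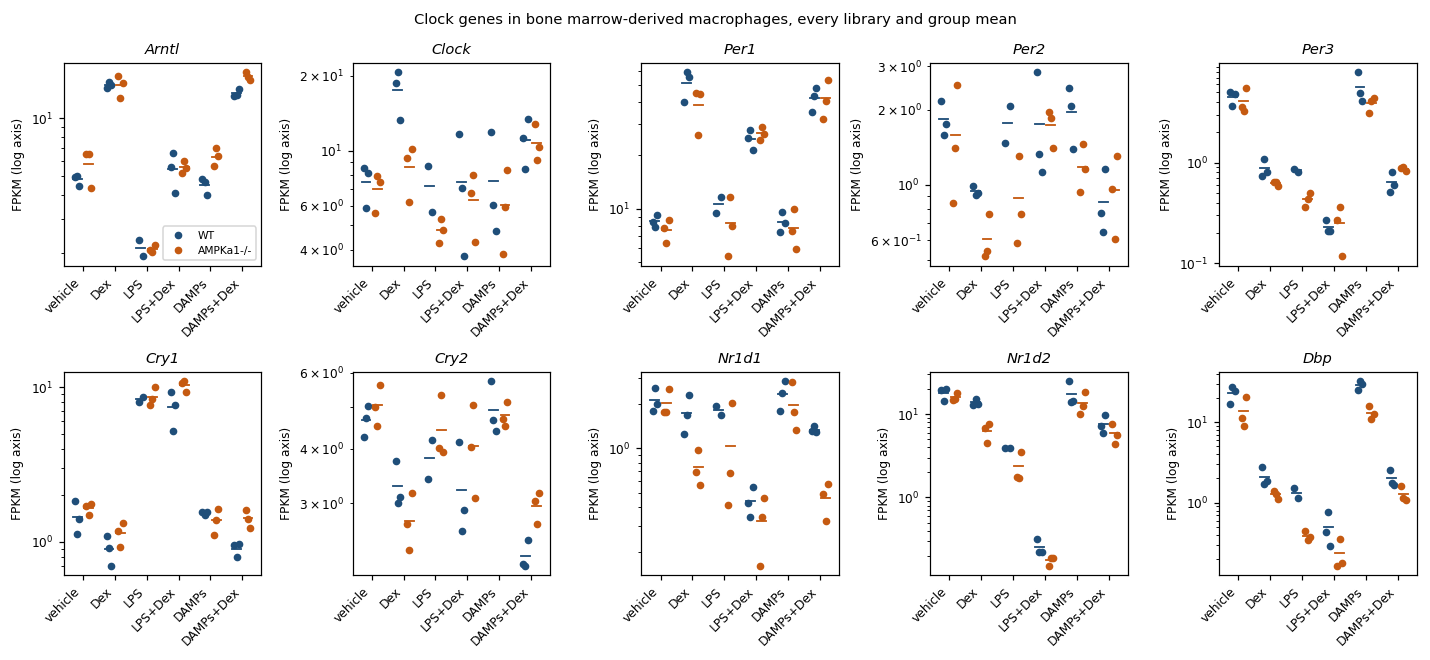
FPKM of each clock gene in every library (points) with the group mean (bar), on a log axis, for 6 treatments in WT (blue) and AMPKa1-/- (orange); n = 3 per group, 2 for WT LPS. Per1 sits high in all groups with Dex, Arntl in those with Dex or DAMPs+Dex, Cry1 in both LPS groups, and Dbp, Per3 and Nr1d2 have their lowest mean within each genotype with LPS+Dex.

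To ask what each agent did, differences were estimated with limma on log2(FPKM + 1) over all 11354 genes that passed the filter, and a gene was called at a Benjamini-Hochberg adjusted p under 0.05. Fold values on this scale understate the change of genes near or below 1 FPKM. In WT, Dex against vehicle changed 6 of the 10 clock genes, beside 30.9% of all tested genes; 3 were higher (15.9% of all genes) and 3 lower (14.9%). LPS against vehicle changed 5 (55.7% of all genes), 1 higher (19.9%) and 4 lower (35.8%). LPS+Dex against LPS changed 6 (34.1%), 2 higher (16.6%) and 4 lower (17.5%). DAMPs+Dex against DAMPs changed 8 (24.3%), 2 higher (11.7%) and 6 lower (12.6%), whereas DAMPs against vehicle changed 0 (2.01%). In AMPKa1-/-, 8 clock genes were called with Dex (27.9% of all genes), 2 higher (11.9%) and 6 lower (16%). With LPS 6 were called (64.3%), 1 higher (20.2%) and 5 lower (44.1%), and with LPS+Dex against LPS 5 (37.7%), 3 higher (19.3%) and 2 lower (18.4%). DAMPs+Dex against DAMPs gave 7 (25.3%), 2 higher (13.1%) and 5 lower (12.2%), and DAMPs against vehicle 0 (4.13%). The count for LPS, 5 and 6 of 10, was below the share of all genes in both genotypes. The median absolute difference of the clock genes was 0.83 for Dex in WT against 0.30 over all genes, and 0.59 for LPS against 0.52. The Dex and LPS comparisons share the vehicle libraries.

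**Figure D2:**
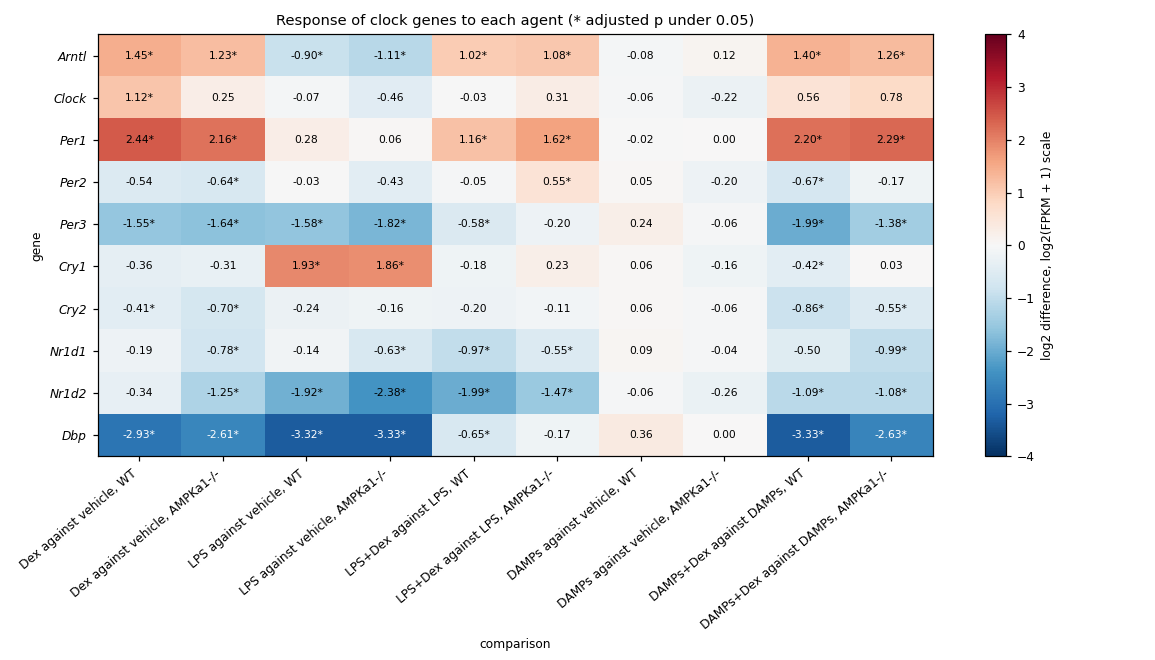
Log2 difference of each clock gene (rows) in 5 comparisons and 2 genotypes (columns), on the log2(FPKM + 1) scale, with an asterisk at an adjusted p under 0.05. Per1 and Arntl are higher in all 6 comparisons that add Dex, Dbp is lower by 2.61 to 3.33 in the comparisons of Dex, LPS or DAMPs+Dex with their reference, and the DAMPs columns hold no asterisk.

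Among the activators, Arntl rose with Dex and fell with LPS in both genotypes. Its libraries read 4.94, 5.04 and 4.48 FPKM in WT vehicle and 14.4, 15.4 and 15.0 FPKM in WT Dex. With LPS it was at 2.33 and 1.92 FPKM, and with LPS+Dex at 5.56, 6.62 and 4.10 FPKM. Dex thus set all its libraries above the reference, and LPS+Dex overlapped vehicle but neither Dex nor LPS. The difference for Dex was 1.45 ± 0.13 (SE, adjusted p = 1.9e-09) in WT and 1.23 ± 0.13 (4.0e-08) in AMPKa1-/-, where the libraries rose from 6.52, 6.54 and 4.33 to 16.5, 12.8 and 15.3 FPKM. LPS lowered it by 0.90 in WT and 1.11 in AMPKa1-/-, and Dex on top of LPS raised it by 1.02 ± 0.15 and 1.08 ± 0.13. Adding Dex to DAMPs raised it by 1.40 and 1.26. LPS moved the median of all tested genes by -0.19 in WT and -0.30 in AMPKa1-/-, and with libraries centred on a common median the LPS differences of Arntl were -0.75 and -0.83.

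Clock, the partner of Arntl, gave a less even picture. In WT it was at 8.53, 5.89 and 8.12 FPKM with vehicle and at 18.7, 20.7 and 13.3 FPKM with Dex, a difference of 1.12 ± 0.31 (adjusted p = 0.00663). In AMPKa1-/- the libraries read 5.62, 7.89 and 7.45 FPKM with vehicle and 9.34, 6.21 and 10.1 FPKM with Dex, which overlap, and the difference of 0.25 had an interval of -0.38 to 0.87. No other comparison of treatments was called for Clock in either genotype, with 0.56 and 0.78 for DAMPs+Dex against DAMPs as the next highest values. Clock has the longest exons of the 10 genes (13727 bases), and 2 of the 3 WT Dex libraries had the highest length offsets of all 35. The median deviation of genes of at least 6.61 kb minus that of genes of at most 2.54 kb was 0.43, 0.65 and 0.27 in WT Dex, and -0.12, -0.40 and 0.01 in AMPKa1-/- Dex, on the log2 scale; the other 29 libraries ran from -0.50 (WT LPS+Dex 3) to 0.33 (WT DAMPs 1). When the length trend of each library was removed, the Dex difference of Clock was 0.74 in WT and 0.45 in AMPKa1-/- (adjusted p = 0.0156), both called. Without the 4 libraries with an offset of 0.4 or more in size (WT Dex 1 and 2, WT LPS+Dex 3, AMPKa1-/- Dex 2) it was 0.76 in WT and not called; only 1 WT Dex library is left in that setting, and its spread is taken from the other groups.

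The Period genes, whose proteins close the negative loop, moved in different directions. Per1 was raised in all 6 comparisons that added Dex. WT libraries were at 8.45, 7.87 and 9.22 FPKM with vehicle and 39.9, 58.9 and 55.3 FPKM with Dex. With LPS they read 9.45 and 11.7 FPKM, and with LPS+Dex 25.2, 27.9 and 21.4 FPKM. The lowest WT library with Dex (21.4 FPKM) lay above the highest without (11.7 FPKM). The ratio of mean FPKM for Dex over vehicle was 6.04 in WT and 5.04 in AMPKa1-/-, and for LPS+Dex over LPS 2.35 and 3.20. On the log2 scale Dex raised Per1 by 2.44 ± 0.22 (adjusted p = 2.1e-09) in WT and 2.16 ± 0.22 (2.0e-08) in AMPKa1-/-, where the Dex libraries were at 44.8, 26.1 and 44.2 FPKM. LPS alone gave 0.28 in WT and 0.06 in AMPKa1-/-, not called in either. Ordered by mean, the 6 groups that received Dex came first, from 51.4 ± 10.1 FPKM in WT Dex to 24.8 ± 3.27 FPKM in WT LPS+Dex. Each of these overlapped the next, and WT LPS followed apart from them at 10.6 ± 1.57 FPKM (n = 2).

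Per2 was weakly expressed, and its differences on the log2(FPKM + 1) scale are compressed. The mean with Dex was 1.95-fold lower than with vehicle in WT and 2.62-fold lower in AMPKa1-/-. It read 2.17, 1.59 and 1.75 FPKM in WT vehicle and 0.993, 0.908 and 0.925 FPKM in WT Dex, groups that do not overlap, but the difference of -0.54 missed the threshold (adjusted p = 0.0556). In AMPKa1-/- it fell by 0.64 with Dex (adjusted p = 0.0256), and its vehicle libraries spread from 0.844 to 2.52 FPKM. That call was lost without vehicle replicate 2 or 3 (-0.67 and -0.39) or Dex replicate 1 or 2 (-0.60 and -0.61) of that genotype. With LPS+Dex against LPS it rose by 0.55 in AMPKa1-/- (adjusted p = 0.0435), from 0.585, 1.31 and 0.763 to 1.95, 1.85 and 1.41 FPKM. This call was lost without LPS replicate 1 or 3 (0.44 and 0.51) or LPS+Dex replicate 1 or 2 (0.49 and 0.52). The ratio of these means was 1.96. In WT the same comparison gave -0.05. With DAMPs+Dex against DAMPs it fell by 0.67 in WT (adjusted p = 0.0218), a call lost without DAMPs replicate 1 or 2 (-0.55 and -0.64) or DAMPs+Dex replicate 1 or 2 (-0.64 and -0.59). The AMPKa1-/- difference was -0.17 and not called.

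Per3 fell with Dex, with LPS and further with both. WT libraries read 5.07, 3.63 and 4.86 FPKM with vehicle, 0.733, 1.08 and 0.808 FPKM with Dex, and 0.864 and 0.811 FPKM with LPS. With LPS+Dex they were at 0.271, 0.207 and 0.208 FPKM, below all the others. The mean with LPS+Dex was 19.8-fold lower than with vehicle in WT and 16.6-fold lower in AMPKa1-/-. In the fit Dex lowered Per3 by 1.55 ± 0.17 in WT and 1.64 ± 0.17 in AMPKa1-/-, and LPS by 1.58 and 1.82. Dex on top of LPS lowered it by 0.58 in WT (adjusted p = 0.0160; not called without LPS replicate 2, at -0.56, or 3, at -0.60, each of which leaves 1 WT LPS library), and in AMPKa1-/- the difference was -0.20, not called. With a pseudocount of 0.1 in place of 1 that last value was -0.67 and was called.

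Of the Cryptochromes, partners of the Period proteins, Cry1 rose with LPS and Cry2 fell with Dex. Cry1 was at 1.82, 1.12 and 1.41 FPKM in WT vehicle and 7.96 and 8.68 FPKM in WT LPS, and at 1.71, 1.49 and 1.75 FPKM against 7.67, 8.32 and 9.96 FPKM in AMPKa1-/-. LPS raised it by 1.93 ± 0.16 (adjusted p = 5.7e-11) and 1.86 ± 0.15 (9.5e-12), and it was the only one of the 10 clock genes called higher with LPS in either genotype. With LPS+Dex it stayed at 9.29, 5.23 and 7.63 FPKM in WT and 10.6, 10.9 and 9.27 FPKM in AMPKa1-/-, and neither difference from LPS was called (-0.18 and 0.23). With Dex Cry1 read 1.08, 0.913 and 0.702 FPKM in WT, below every vehicle library, and the differences from vehicle, -0.36 in WT (adjusted p = 0.0572) and -0.31 in AMPKa1-/- (0.115), were not called. The ratio of Dex to vehicle in WT was 0.619 for Cry1 and 0.702 for Cry2, and with a pseudocount of 0.1 the WT difference of Cry1 was -0.63 and called (adjusted p = 0.0206). With DAMPs+Dex against DAMPs it fell by 0.42 in WT (adjusted p = 0.0354), a call lost without any 1 of the 6 libraries (-0.44 to -0.38). In AMPKa1-/- that difference was 0.03 and not called. Cry2 fell with Dex by 0.41 in WT (adjusted p = 0.0340) and 0.70 in AMPKa1-/- (5.6e-04), and with DAMPs+Dex against DAMPs by 0.86 and 0.55. Its WT libraries read 4.27, 4.73 and 5.03 FPKM with vehicle and 3.75, 3.0 and 3.09 FPKM with Dex. The LPS differences of Cry2, -0.24 and -0.16, were not called. The WT Dex call of Cry2 was lost without vehicle replicate 2 or 3 (-0.40 and -0.36) or Dex replicate 2 or 3 (-0.36 and -0.38).

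The REV-ERB gene Nr1d2 had the lowest ratio of LPS+Dex to vehicle of all 10 genes in both genotypes. In WT it was at 19.6, 14.4 and 19.8 FPKM with vehicle, 12.8, 15.3 and 13.3 FPKM with Dex, and 3.97 and 3.96 FPKM with LPS. With LPS+Dex it was at 0.313, 0.223 and 0.220 FPKM, values that rest on few fragments. The AMPKa1-/- libraries followed the same order, with 14.8, 15.2 and 18.1 FPKM for vehicle, 1.78, 1.74 and 3.55 FPKM for LPS and 0.152, 0.189 and 0.188 FPKM for LPS+Dex. Against vehicle the mean with LPS+Dex was 71.2-fold lower in WT and 90.9-fold lower in AMPKa1-/-, and against LPS 15.7-fold and 13.4-fold lower. LPS lowered Nr1d2 by 1.92 ± 0.26 (adjusted p = 3.5e-07) and 2.38 ± 0.23 (6.9e-10) on the log2(FPKM + 1) scale, and Dex on top of LPS by a further 1.99 ± 0.26 (4.8e-07) and 1.47 ± 0.23 (7.6e-06). Dex alone gave -0.34 in WT, not called, and -1.25 in AMPKa1-/- (adjusted p = 1.4e-04).

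Its relative Nr1d1 was low in all libraries. In WT it read 1.77, 2.55 and 2.0 FPKM with vehicle, 1.25, 1.66 and 2.30 FPKM with Dex and 1.93 and 1.68 FPKM with LPS, all overlapping, but 0.426, 0.341 and 0.548 FPKM with LPS+Dex, a fall of 0.97 ± 0.23 from LPS (adjusted p = 0.00164). In AMPKa1-/- it fell with Dex by 0.78 (adjusted p = 0.00517), with LPS by 0.63 (0.00956) and with DAMPs+Dex against DAMPs by 0.99 (6.1e-04). In WT DAMPs+Dex against DAMPs gave -0.50 (adjusted p = 0.0853, not called). The WT libraries read 1.31, 1.40 and 1.29 FPKM with DAMPs+Dex, below 1.77, 2.36 and 2.83 FPKM with DAMPs. The LPS call in AMPKa1-/- was lost with libraries centred on a common median (-0.36), with quantile normalization (-0.17) and without vehicle replicate 3 (-0.51) or LPS replicate 1 (-0.41), and was -0.96 without LPS replicate 3. With LPS+Dex against LPS it fell by 0.55 there (adjusted p = 0.0380), a call lost without LPS replicate 3 (-0.23) or LPS+Dex replicate 1 or 2 (-0.46 and -0.56). In the annotation Nr1d1 shares 263 exonic bases with Thra, a thyroid hormone receptor gene on the opposite strand, and Thra had a mean of 24.7 FPKM. How strand was treated in the counting is not given in these sources, so reads of this stretch cannot be told apart. Thra rose with LPS+Dex against LPS (0.77 in WT and 0.81 in AMPKa1-/-), and the part of shared reads in the values of Nr1d1 was not tested.

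Dbp, the output gene, fell with Dex and with LPS in both genotypes. WT libraries were at 16.7, 27.1 and 24.2 FPKM with vehicle, 2.75, 1.70 and 1.84 FPKM with Dex and 1.52 and 1.15 FPKM with LPS. Those of AMPKa1-/- were at 11.4, 9.07 and 20.6 FPKM, 1.42, 1.29 and 1.13 FPKM and 0.451, 0.342 and 0.374 FPKM. In both genotypes every vehicle library lay above every library with Dex or LPS. The ratio of means for vehicle over Dex was 10.8 in WT and 10.7 in AMPKa1-/-, and for vehicle over LPS 17.1 and 35.2. The LPS libraries lay below all Dex libraries of the same genotype. In the fit Dex lowered Dbp by 2.93 ± 0.21 (adjusted p = 1.8e-11) and 2.61 ± 0.21 (1.7e-10), and LPS by 3.32 ± 0.23 (1.5e-12) and 3.33 ± 0.21 (1.0e-13). With a pseudocount of 0.1, which compresses low values less, the Dex differences were -3.38 and -3.24 and the LPS differences -3.98 and -4.74. LPS+Dex against LPS gave -0.65 in WT (adjusted p = 0.0326) and -0.17 in AMPKa1-/- (not called). The AMPKa1-/- LPS+Dex libraries reached down to 0.167 and 0.179 FPKM, values that rest on few fragments. The WT call was lost without LPS replicate 2 or 3 (-0.53 and -0.76) or LPS+Dex replicate 1 or 3 (-0.62 and -0.54). Each omission from WT LPS leaves 1 library there, with a spread taken from the other groups. Dbp shares 539 exonic bases with Sphk2, a sphingosine kinase gene on the opposite strand, at a mean of 25.8 FPKM, and Sphk2 was not called in any of these comparisons (-0.28 to 0.04 in WT). The part of shared reads in the values of Dbp was not tested.

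DAMPs alone left all 10 clock genes without a call in either genotype. The estimates ran from -0.08 for Arntl to 0.36 for Dbp in WT, and the interval of Dbp reached from -0.07 to 0.79. Dbp read 25, 32 and 29.9 FPKM in WT DAMPs, overlapping vehicle. At an unadjusted p under 0.05 the count was also 0 in both genotypes, beside 9.68% and 13.3% of all genes. None of the 5 inflammatory genes used as a check (Il1b, Tnf, Nos2, Cxcl10, Il6) was called with DAMPs either, with 1.12 for Il1b in AMPKa1-/- as the highest value. When Dex was added to DAMPs, Per1 rose by 2.2 and 2.29, Arntl by 1.40 and 1.26, Dbp fell by 3.33 and 2.63, Per3 by 1.99 and 1.38, and Nr1d2 by 1.09 and 1.08, in WT and AMPKa1-/- respectively. The test of the Dex effect with DAMPs against that without called 0 of 10 in either genotype (0.00881% and 0.308% of all genes), with 2 at an unadjusted p under 0.05 in WT (9.9% of all genes) and 0 in AMPKa1-/- (10.3%).

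The Dex effect with LPS was tested in the same way against the Dex effect without, which asks whether Dex acts on the clock genes alike in resting and inflamed cells. In WT it differed for 4 of 10 genes (32% of all genes tested) and in AMPKa1-/- for 4 (28.4%), shares near those of all genes. Per1 rose less in the presence of LPS in WT, by 1.29 ± 0.33 (adjusted p = 0.00410), and in AMPKa1-/- the difference of -0.54 was not called. Nr1d2 fell more with LPS in WT, by 1.64 ± 0.35 (adjusted p = 6.0e-04); in AMPKa1-/- the value was -0.22, and -1.71 (called) with a pseudocount of 0.1. Dbp and Per3 fell less with Dex there than with Dex alone. The difference was 2.28 ± 0.31 and 2.44 ± 0.30 for Dbp and 0.97 ± 0.25 and 1.44 ± 0.24 for Per3, in WT and AMPKa1-/-. In the same order, their LPS means were already low, at 1.33 and 0.389 FPKM for Dbp and 0.837 and 0.433 FPKM for Per3. This caps any further fall on the log2(FPKM + 1) scale, so a smaller fall was largely fixed by the LPS level. These calls therefore cannot show that Dex acted less. With the pseudocount of 0.1 the WT value of Per3 was 0.73 and no longer called, and that in AMPKa1-/- was 1.85 and called. Under that setting Nr1d1 in WT was called at -1.55 (adjusted p = 0.0360), against -0.77 and no call in the main fit. Cry1 in AMPKa1-/- was likewise called at 0.75 (adjusted p = 0.04995), against 0.54 and no call. Per2 and Cry2 were called in AMPKa1-/- only (1.19 and 0.59, against 0.49 and 0.21 in WT), and whether this contrast differs between genotypes was not tested. The Cry2 call was lost without replicate 1 or 3 of vehicle, 1 or 2 of Dex, 1 or 3 of LPS, or 1 or 2 of LPS+Dex (0.45 to 0.59). For Arntl the differences were -0.43 and -0.15, and neither was called.

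**Figure D3:**
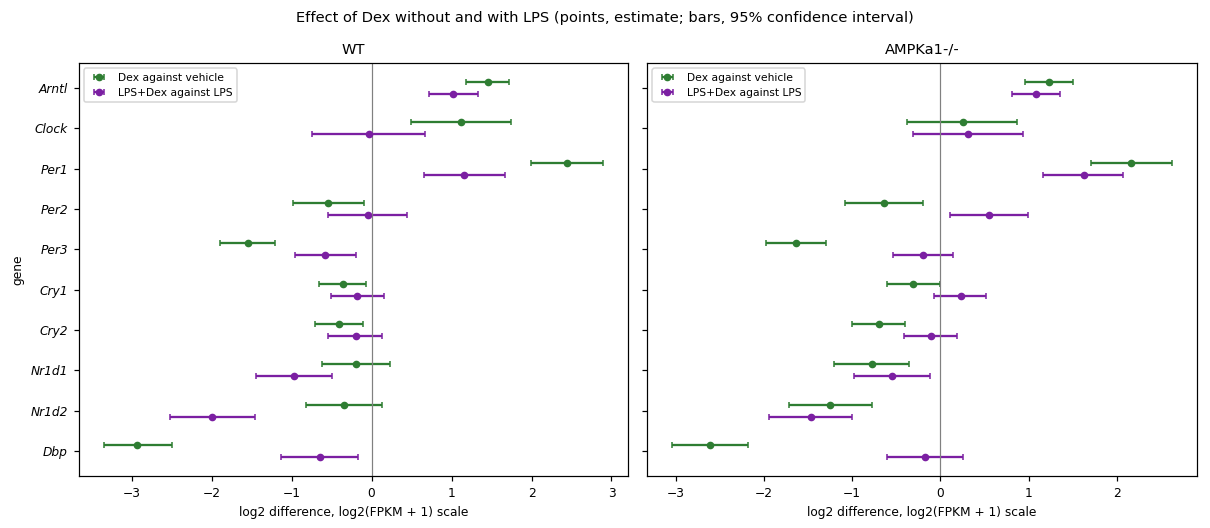
Log2 difference made by Dex without LPS (green) and with LPS (purple) for each clock gene, in WT (left) and AMPKa1-/- (right); points are estimates on the log2(FPKM + 1) scale and bars 95% confidence intervals. The intervals of Dbp and Per3 lie apart in both panels, those of Nr1d2 and Per1 lie apart in WT, and those of Per2 in AMPKa1-/-. Low levels of Dbp and Per3 with LPS cap their fall with LPS on this scale.

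The question for the second genotype was whether loss of AMPKa1 alters these responses. The response itself differed between libraries labelled AMPKa1-/- and WT for 0 of 10 clock genes in each of the 5 comparisons, beside 0% of all tested genes. At an unadjusted p under 0.05 the count was 1 of 10 for Dex (Nr1d2, -0.90 with an interval of -1.57 to -0.23; 21.5% of all genes) and 3 for DAMPs+Dex against DAMPs (Per3, Cry1 and Dbp; 2.06%). It was 0 for LPS (4.53%), LPS+Dex against LPS (2.74%) and DAMPs (0.581%). For Per1 the intervals were -0.93 to 0.36 with Dex and -0.22 to 1.15 with LPS+Dex, which leaves room for differences of up to that size.

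At the same treatment, the genotypes were called different for 3 clock genes with Dex, where 26.5% of all genes were called, and for 1 with DAMPs (0.731%). All 4 calls were lower in AMPKa1-/- (15.5% and 0.282% of all genes were called lower). The counts with vehicle (0.432%), LPS (0.766%), LPS+Dex (0.669%) and DAMPs+Dex (1.06%) were 0. At an unadjusted p under 0.05 they were 1 (6.17% of all genes), 4 (11.4%), 1 (8.11%) and 3 (9.4%). With LPS, Dbp was lower in AMPKa1-/- without overlap (0.342 to 0.451 FPKM against 1.15 and 1.52 FPKM); the difference was -0.74 and not called, and -1.54 and called (adjusted p = 0.0200) with a pseudocount of 0.1. With Dex, Clock was lower in AMPKa1-/- by 0.96 ± 0.31, Nr1d1 by 0.64 ± 0.21 and Nr1d2 by 1.05 ± 0.23 (adjusted p = 0.0265, 0.0281 and 0.00495). Nr1d2 read 6.76, 4.49 and 7.58 FPKM in AMPKa1-/- Dex, below the 12.8 FPKM of the lowest WT Dex library. The length offsets given above do not overlap between these same groups. Removing the length trend left 1971 of 11334 genes called between genotypes with Dex, against 3008 of 11354 in the main fit. Without the length trend Clock was at -0.38 (adjusted p = 0.0634, not called), while Nr1d1 at -0.70 (0.0254) and Nr1d2 at -0.86 (0.00791) kept their calls, and without the 4 libraries of large offset none of the 3 was called (-0.41, -1.02 and -0.81). Single libraries also ended these calls: WT Dex 1 (-0.90), WT Dex 2 (-0.84) or AMPKa1-/- Dex 2 (-0.77) for Clock, AMPKa1-/- Dex 2 (-0.86) for Nr1d2, and any of WT Dex 2 and 3 and AMPKa1-/- Dex 1, 2 and 3 (-0.73 to -0.50) for Nr1d1. The call of Dbp with DAMPs, -1.10 ± 0.21 (adjusted p = 0.00750), rested on 15.7, 11 and 12.6 FPKM against 25, 32 and 29.9 FPKM in WT, and was lost without AMPKa1-/- DAMPs replicate 2 (-0.99), with a pseudocount of 0.1 (-1.15, adjusted p = 0.0850) and with only the groups compared in the fit (-1.10). With vehicle Dbp gave -0.74 and was not called (adjusted p = 0.139).

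**Figure D4:**
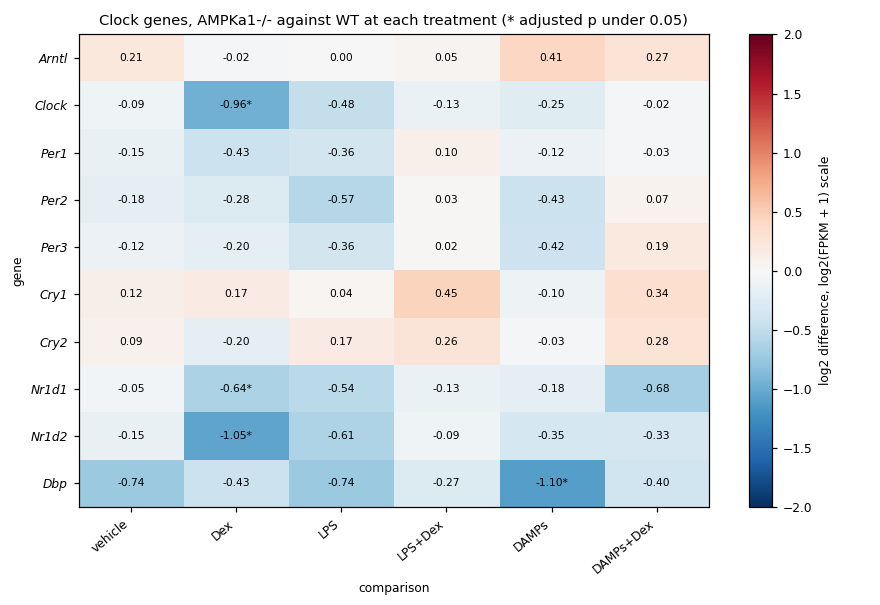
Log2 difference of each clock gene (rows), AMPKa1-/- against WT at each of 6 treatments (columns), on the log2(FPKM + 1) scale, with an asterisk at an adjusted p under 0.05. Asterisks stand at Clock (-0.96), Nr1d1 (-0.64) and Nr1d2 (-1.05) with Dex and at Dbp (-1.10) with DAMPs.

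A list of 20 further clock genes, which act beside the 10 as receptors, competitors, kinases, ubiquitin ligases and outputs, placed these values in the wider loop. Of these, 14 passed the filter and 6 did not (Npas2, Arntl2, Rorb, Hlf, Fbxl21 and Usp2). In WT, 9 of 14 were called with Dex (5 higher, 4 lower; 30.9% of all genes were called), 11 with LPS (3 higher, 8 lower; 55.7%) and 6 with LPS+Dex against LPS (3 and 3; 34.1%). In AMPKa1-/- the counts were 5 (1 and 4; 27.9%), 10 (3 and 7; 64.3%) and 9 (4 and 5; 37.7%), and DAMPs called 0 in either genotype. Of the genes that act on the same DNA elements as Nr1d1 and Nr1d2, Rora, an activator through the ROR element, had the LPS and LPS+Dex directions of Arntl. It was at 7.17 ± 1.25 FPKM in WT vehicle (SD, n = 3), fell by 1.96 ± 0.30 with LPS (2.27 in AMPKa1-/-) and rose by 1.60 ± 0.30 with LPS+Dex against LPS (2.03). With Dex alone it rose by 1.2 in WT, and in AMPKa1-/- the value was 0.24; its exons are long (13071 bases), and the length offset of the WT Dex libraries stands beside this value too.

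The D-box genes divided. Tef, an activator related to Dbp, fell with Dex by 1.33 and 1.5, with LPS by 1.86 and 2.33, and with LPS+Dex against LPS by 1.08 and 0.87, in WT and AMPKa1-/-. Its means in WT were 62.0 ± 5.21 FPKM with vehicle, 24.1 ± 2.02 with Dex and 7.66 ± 3.36 with LPS+Dex. Nfil3, a repressor at the same elements, rose with Dex by 1.76 and 1.91, with LPS by 1.29 and 0.84, and with LPS+Dex against LPS by 0.58 and 0.87. The repressors of E-box transcription Bhlhe40 (DEC1) and Bhlhe41 (DEC2) fell with Dex by 2.35 and 2.23 and by 1.67 and 2.0. With LPS Bhlhe41 fell by 2.81 and 2.70, and Bhlhe40 was higher by 1.23 in AMPKa1-/- (0.86 in WT, not called). With LPS+Dex against LPS Bhlhe40 fell by 2.44 ± 0.39 and 2.16 ± 0.35, from means of 15.1 to 2.03 FPKM in WT and 15.4 to 2.66 FPKM in AMPKa1-/-, whereas Bhlhe41 rose by 0.48 in AMPKa1-/- (0.46 in WT, not called).

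Of the output genes, Wee1, a cell cycle kinase, rose by 2.2 ± 0.26 and 2.23 ± 0.23 when Dex was added to LPS, after falling by 1.37 and 1.76 with LPS, and with Dex alone it rose by 1.66 in WT (0.58 in AMPKa1-/-, not called). Nampt, an enzyme of NAD synthesis, rose with LPS by 1.67 and 1.61, rose with Dex in WT by 0.73 and fell with LPS+Dex against LPS by 0.89 and 0.65. Timeless fell with Dex by 1.01 and 1.53, beside the lower sum of the cycling genes given above, whose part was not tested. It rose with LPS in WT by 0.68 and fell with LPS+Dex against LPS in AMPKa1-/- by 0.90. Cipc, an inhibitor of Clock, fell with LPS by 1.40 and 0.87 and rose with Dex in WT by 0.92. The kinases of the Period proteins, Csnk1d and Csnk1e, fell with LPS by 0.38 and 1.68 in WT and by 0.62 and 1.71 in AMPKa1-/-, against the medians of all genes with LPS given above. Btrc, part of a ubiquitin ligase that acts on the Period proteins, fell with LPS in WT by 0.27, where the median of all tested genes moved by -0.19. With LPS+Dex against LPS in AMPKa1-/- it fell by 0.35. Its relative Fbxw11 and the repressor gene Ciart were called in none of these comparisons. With DAMPs+Dex against DAMPs, Nfil3 (2.50 and 1.82) and Wee1 (1.35 and 1.73) rose, and Tef (-1.97 and -1.43), Bhlhe40 (-1.81 and -1.55), Bhlhe41 (-2.19 and -2.39) and Timeless (-0.71 and -0.70) fell in both genotypes, while Rora rose in AMPKa1-/- (0.71; 0.48 in WT, not called). Between genotypes, 6 of the 14 were called with Dex, all lower in AMPKa1-/- (Cipc by 1.17, Rora by 1.03, Wee1 by 1.0, Ciart by 0.62, Bhlhe41 by 0.61 and Nampt by 0.49). The length offsets given above, which do not overlap between these Dex groups, stand beside these calls too. With DAMPs 2 were called (Nfil3 0.75, Cipc -0.68) and with DAMPs+Dex 1 (Cipc -0.75). These counts stand beside the shares of all genes given above. The response itself was called different between genotypes for 0 of 14.

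**Figure D5:**
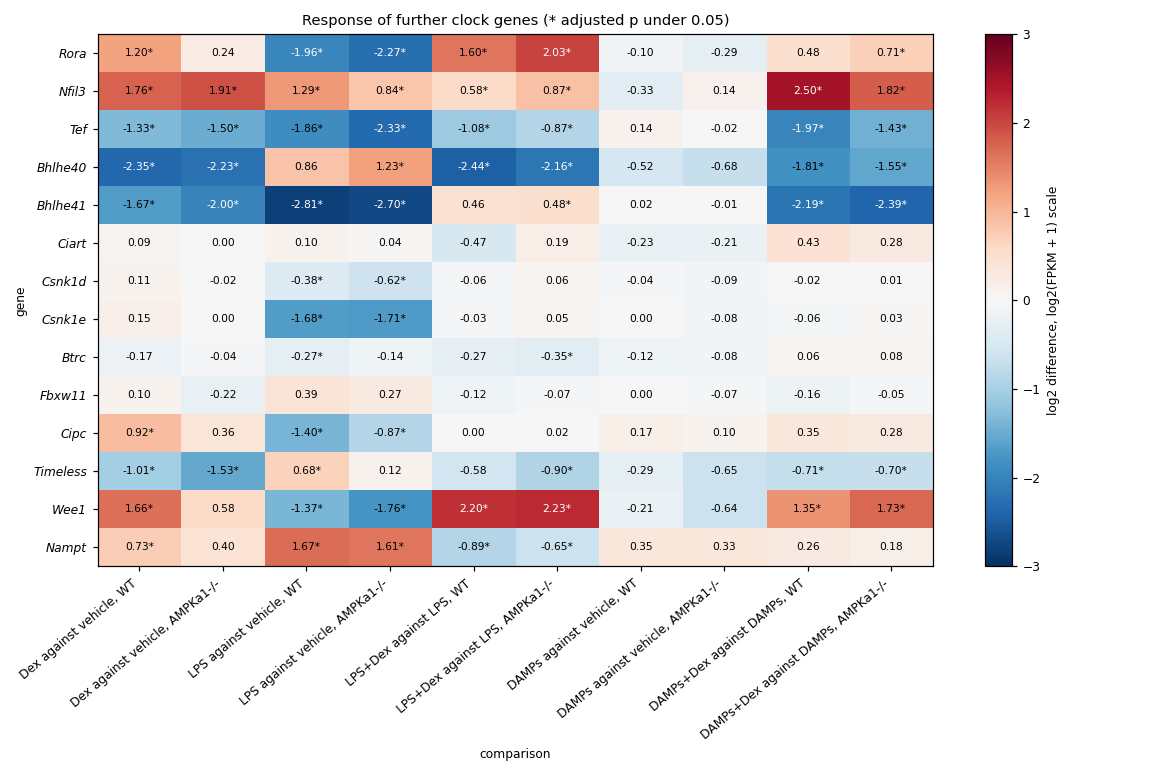
Log2 difference of the 14 tested further clock genes (rows) in 5 comparisons and 2 genotypes (columns), on the log2(FPKM + 1) scale, with an asterisk at an adjusted p under 0.05. Tef has an asterisk and is lower in each column except the DAMPs pair, and Nfil3 has one and is higher in each column except that pair, where neither gene has an asterisk.

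The patterns of the 3 clock genes with the widest range were compared with all other tested genes over the 12 group means. Most like Dbp was Per3 (Pearson's r = 0.989), followed by Hsd3b2 (0.988) and Nxpe5 (0.982). The genes most like Nr1d2 were Arhgap17 (0.995), ENSMUSG00000089672, which has no symbol here (0.993), and Dse (0.990), and those most like Per1 were Mark3 (0.982), Gdap2 (0.981) and Vapa (0.978). These values describe 12 group means only, and the genes named were picked for the highest r among all other tested genes.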

How the data were processed

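RNA sequencing of 35 libraries of bone marrow-derived macrophages was used. The authors deposited FPKM values per gene, not counts. Per the labels, the submitters' processing notes name Bowtie2 2.2.3, TopHat2 2.0.12, HTSeq 0.6.1 and DESeq2, and the builds GRCm38 and mm10, with no roles; which annotation release and strand setting were used is not given in these sources. With exon lengths of GENCODE release M21 (GRCm38), genes of fewer than 10 fragments gave whole numbers, to within 0.001, in 55.1% to 63.4% of cases per library, so fragment numbers are estimates, no count test was run, and depth covers counting error only. Promoters came from RefSeq tables.

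Genes with a mean of at least 1 FPKM (11354) were fitted with limma 3.58.1 in R 4.3.3 (eBayes with trend, 2-sided) on log2(FPKM + 1) over 12 groups, with Benjamini-Hochberg adjustment in each of 25 comparisons at 0.05. Intervals are 95% confidence intervals. The script was tested on simulated data. Tables and figures used Python 3.11.15, pandas 2.3.3, numpy 2.4.6 and matplotlib 3.10.9.

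All 10 clock genes are named in the comparisons, the further list is named where called between treatments or genotypes, or for the Dex effect with LPS (some of its genes are not reported here), and the 3 genes most like the 3 widest-ranging clock genes are given. Members, lists and tests were chosen with earlier results of these data known. Replicate numbers were checked by correlating deviations from group means. In AMPKa1-/-, every same-numbered pair was over 0.1 for Dex and vehicle (0.30, 0.22 and 0.40), LPS and vehicle (0.24, 0.12 and 0.32) and LPS+Dex and LPS (0.37, 0.37 and 0.36), as were LPS+Dex libraries across genotypes (0.12, 0.12 and 0.51). With replicates 2 and 3 only, so were LPS+Dex and LPS in WT (0.11 and 0.43) and LPS libraries across genotypes (0.13 and 0.11). What a number marks is not stated. The alternative settings were omission of the filter, a filter at 5 FPKM, 0.1 as pseudocount, median centring, quantile normalization, fits of only the groups compared, a replicate block and leaving out each library; removal of a length trend, and leaving out the 4 libraries of large length offset, were chosen after seeing the data.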

Additional observations from a re-analysis of the deposited data

Results flagged for a closer look

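Differences of the Dex effect with LPS from that without, by a test of the difference itself, were called for the following genes (limma, adjusted p under 0.05). Among the 10 clock genes these were Per1 (-1.29), Per3 (0.97), Nr1d2 (-1.64) and Dbp (2.28) in WT, and Per2 (1.19), Per3 (1.44), Cry2 (0.59) and Dbp (2.44) in AMPKa1-/-. The calls of Per3 and Dbp were largely fixed by their low levels with LPS and cannot show a weaker Dex effect. The Cry2 call was lost under 12 of the 43 alternatives.

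Of the 14 tested genes of the further list, 4 were called in WT (32% of all genes) and 5 in AMPKa1-/- (28.4%). Among them the Dex effect was more positive with LPS for Bhlhe41 in WT (2.12) and AMPKa1-/- (2.48) and for Rora (1.78) and Wee1 (1.65) in AMPKa1-/-. It was more negative for Nfil3 in WT (-1.17) and AMPKa1-/- (-1.04), for Nampt (-1.62 and -1.05), and for Cipc (-0.92) in WT. No explanation was tested.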

How the results depend on the processing

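Of 63 differences called for the clock genes, 46 kept their call under all alternatives run and 17 lost it under at least 1; none reversed while called, and 20 that were not called passed under some alternative. The replicate block moved no count of called clock genes by over 1.5 times (6 for LPS+Dex against LPS in WT, as without the block), and in comparisons whose numbers pair it changed no call of a single difference between groups; for the Dex effect with LPS against that without in AMPKa1-/-, Cry1 was called with it (0.54).

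A pseudocount of 0.1 gave 1 clock gene for AMPKa1-/- against WT with LPS and 0 with DAMPs. Without a filter the counts were 3 for LPS+Dex against LPS in AMPKa1-/- and 1 for AMPKa1-/- against WT with Dex. A mean FPKM of at least 5 tests fewer clock genes and gave 3 for LPS and 4 for DAMPs+Dex in WT, and 4 for Dex, 3 for LPS, 3 for LPS+Dex, 4 for DAMPs+Dex and 1 for the Dex effect with LPS against that without in AMPKa1-/-. For AMPKa1-/- against WT with DAMPs, quantile normalization gave 2 and fitting only the groups compared 0. Removing length trends gave 7 for the Dex effect with LPS against that without in WT, and leaving out the 4 libraries of large length offset gave 0 for AMPKa1-/- against WT with Dex. The cause was not tested.

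Leaving out 1 library at a time gave counts of 3 to 5 for LPS+Dex against LPS in AMPKa1-/- (3 without LPS replicate 3 or LPS+Dex replicate 1 or 2). AMPKa1-/- against WT ranged from 0 to 3 with Dex (0 without AMPKa1-/- Dex replicate 2, 1 without WT Dex replicate 2), from 0 to 1 with DAMPs (0 without AMPKa1-/- DAMPs replicate 2), and from 0 to 1 with vehicle (without AMPKa1-/- vehicle replicate 3), LPS and DAMPs+Dex (both without AMPKa1-/- LPS replicate 3). Values under about 0.5 FPKM rest on few fragments, and log2(FPKM + 1) compresses differences between them.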
